A study of Mus musculus with 20 samples.

Results

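The nuclear genes of the mitochondrial respiratory chain were followed across 5 mouse tissues and 2 kinds of immunoprecipitation. Members were all genes whose symbol starts with Nduf, Sdh, Uqcr, Cox4, Cox5, Cox6, Cox7, Cox8 or Atp5, apart from Sdhb and Ndufs1, and the probe set that was brightest over the 20 arrays stood for each gene. This rule found 92 of the 18193 genes that a single-symbol probe set names. They comprise 33 subunits of complex I, 3 of complex II, 8 of complex III, 19 of complex IV and 17 of complex V, with 8 assembly factors of complex I and 4 of complex II. Ndufa4 and its relative Ndufa4l2 were counted with complex IV.

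The respiratory chain sits in the inner mitochondrial membrane. Complex I takes electrons from NADH and complex II takes them from succinate. Complex III passes them from ubiquinone to cytochrome c, and complex IV passes them on to oxygen. Complex V, the ATP synthase, uses the proton gradient that complexes I, III and IV build. Several subunits carry iron-sulfur clusters or heme, which ties the chain to iron supply. Some complex IV subunits exist as isoforms that are known from heart and skeletal muscle or from testis.

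Total RNA was pooled by tissue from male and female C57BL6/J mice. Each reaction took 50 µg of it with a rabbit antibody against iron regulatory protein 1 (IRP1), which binds the iron-responsive element, a hairpin found in mRNAs of iron metabolism. The IRP1 reaction also held recombinant His-tagged IRP1 made in E. coli, and the control reaction left that protein out. Each tissue had 2 IRP1 arrays and 2 control arrays, and about 120 ng of recovered RNA was amplified in 2 cycles for an Affymetrix Mouse430_2 array. The mice behind the duodenum, liver and spleen RNA ate iron-poor food (under 10 mg/kg) from weaning for 21 days. Bone marrow and brain came from mice of 8 to 10 weeks on an iron-normal diet. Duodenum, liver and spleen thus shared a diet, as did bone marrow and brain. Between these 2 sets, tissue cannot be told apart from diet and age. Each contrast of a tissue with the mean of the other 4 spans both sets. Bone marrow and brain pools held 6 mice, and 1 duodenum pool held 4; other pool sizes are not given in the sources used here. Whether replicates shared a pool is not given either. The p-values therefore reflect how far reactions and arrays differ, which may be technical. A control array reads RNA that came down without added IRP1, and a level on it is not a measurement of total RNA.

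All values are log2 signals as deposited. A difference of 1 is a factor of 2. Replicates of a group are read in the order replicate 1, replicate 2, and a call means an adjusted p under 0.05 in limma with Benjamini-Hochberg adjustment over 45037 probe sets. Array standard deviations ran from 1.90 to 2.24. The pull-down itself was visible in Tfrc, the transferrin receptor, whose level was 2.19 higher with IRP1 in the mean of the 5 tissues (SE 0.12, limma adjusted p = 3.96e-08).

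Promoter sequences of 5 members show how differently the genes of one chain begin. RefSeq (GRCm38.p6) gave 82 promoter windows for 77 of the 92 members, each with 250 bases before and 50 after the annotated start. These motifs were searched on both strands: GCGCANGCG for NRF1, CCGGAAG for GABP (also called NRF2), AAGATGGCG for YY1, AAGGTCA for ERR, CCAAT and TATAAA. NRF1 and GABP are activators known from nuclear mitochondrial genes. The NRF1 letters stood in 23 member windows (28.0%) against 6.25% of all 32851 windows, and the GABP letters in 21 (25.6%) against 8.86%. The YY1 letters stood in 7 (8.54%) against 1.4%, and the ERR letters in 8 (9.76%) against 4.72%. CCAAT was found in 33 member windows (40.2%, against 37.4%) and TATAAA in 10 (12.2%, against 13.6%). At least 1 of the NRF1, GABP and YY1 motifs was in 42 member windows (51.2%) against 14.8% of all. A match describes letters and is not a bound site.

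The 250 bases before the start are given here, 5′ to 3′ on the gene's strand, with the NRF1, GABP, YY1, ERR and TATAAA letters in capitals. Sdhd (minus strand, chr9:50603850-50604099) and Cox6a1 (minus strand, chr5:115348959-115349208) are shown as broadly detected genes with matches. Other broadly detected members, such as Atp5b and Ndufa13, have windows without any of these 5 motifs. Cox7a1 (plus strand, chr7:30183921-30184170) and Cox6b2 (minus strand, chr7:4753095-4753344) are the complex IV isoforms whose levels were most tied to 1 tissue, and neither stretch holds any of these 5 motifs. Atp5e (minus strand, chr2:174464102-174464351) is the member with the smallest p in the comparison of IRP1 with control.
Sdhd: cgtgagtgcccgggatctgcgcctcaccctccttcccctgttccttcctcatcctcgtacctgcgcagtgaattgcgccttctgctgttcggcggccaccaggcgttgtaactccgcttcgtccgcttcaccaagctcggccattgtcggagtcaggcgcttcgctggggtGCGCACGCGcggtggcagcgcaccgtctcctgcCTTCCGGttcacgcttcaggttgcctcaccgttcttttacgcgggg
Cox6a1: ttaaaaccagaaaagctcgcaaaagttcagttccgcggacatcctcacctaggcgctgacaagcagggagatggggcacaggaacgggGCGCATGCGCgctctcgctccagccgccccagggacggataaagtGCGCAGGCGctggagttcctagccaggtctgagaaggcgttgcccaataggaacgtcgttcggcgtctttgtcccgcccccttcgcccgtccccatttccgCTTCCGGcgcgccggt
Cox7a1: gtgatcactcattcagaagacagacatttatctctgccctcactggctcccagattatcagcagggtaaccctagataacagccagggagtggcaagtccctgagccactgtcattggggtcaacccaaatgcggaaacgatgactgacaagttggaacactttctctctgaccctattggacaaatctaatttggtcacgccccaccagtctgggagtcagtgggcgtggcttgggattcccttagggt
Cox6b2: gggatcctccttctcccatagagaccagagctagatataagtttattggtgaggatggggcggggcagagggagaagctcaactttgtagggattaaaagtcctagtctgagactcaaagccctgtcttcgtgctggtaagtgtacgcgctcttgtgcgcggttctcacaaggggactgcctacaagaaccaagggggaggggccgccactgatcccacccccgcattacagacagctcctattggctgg
Atp5e: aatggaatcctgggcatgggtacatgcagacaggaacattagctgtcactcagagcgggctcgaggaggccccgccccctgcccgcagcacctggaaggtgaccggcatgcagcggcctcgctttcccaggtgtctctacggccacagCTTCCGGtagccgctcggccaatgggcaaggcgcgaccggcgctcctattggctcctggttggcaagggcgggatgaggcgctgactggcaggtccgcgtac

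The capitals in Sdhd are 1 NRF1 and 1 GABP match, in Cox6a1 3 NRF1 matches and 1 GABP match, and in Atp5e 1 GABP match. The capitals of the leftmost NRF1 stretch in Cox6a1 are a pair of overlapping matches on opposite strands.

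Across the control arrays, most respiratory chain genes were at their highest in duodenum. In duodenum 72 of the 92 members rose above the mean of the other 4 tissues, against 15.5% of all 45037 probe sets, and 2 fell, against 18.6%. Among probe sets above the median signal, where 85 of the 92 members lie, 24.5% rose. The median member was 0.96 higher on the log2 scale, while the median over all probe sets was -0.04. Both duodenum control arrays lay above all 8 control arrays of the other tissues for 61 members, which is 66.3% of them, against 9.75% of all probe sets. A mean over the members of 10.89 and 10.78 in the 2 duodenum control arrays compares with 9.54 to 10.36 in the 8 others, and the groups do not overlap. In the IRP1 arrays 69 members were above all 8 others in this way (75%, against 10.1%). Both bone marrow arrays lay below all 8 others for 16 members in the controls (against 6.01%) and for 11 in the IRP1 arrays (against 5.52%). In bulk RNA, more cells of a type and more RNA per cell cannot be told apart.

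The other tissues were lower and less uniform. In bone marrow 45 members fell (20.1% of all probe sets did) and 2 rose (15%), with a median of -0.53. In spleen 31 fell (against 16.3%) and 4 rose (against 19.5%), with a median of -0.34. In brain 13 fell (against 25.3%) and 6 rose (against 19.6%), with a median of -0.14. In liver 17 rose (against 16.6%) and 6 fell (against 22.8%), with a median of 0.04, so the liver share of rises was near the background. The F-test over the 5 tissues called 82 members, against 63.1% of all probe sets and 83.8% of those above the median signal. The 10 not called were Ndufb1, Ndufb4, Ndufb11, Ndufs8, Ndufaf7, Sdhaf4, Cox7b2, Cox8b, Cox8c and Ndufa4l2. Duodenum was the highest tissue for 73 members, and bone marrow was the lowest for 43 and spleen for 23. This order was counted for the members only, so no share of all probe sets stands beside it.

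Counts outside duodenum leaned on single arrays. Without liver control replicate 1, 5 members rose and 12 fell in liver, and without liver control replicate 2, 2 fell. Without spleen control replicate 1, 1 rose and 15 fell in spleen, and without spleen control replicate 2, 19 fell. Without bone marrow control replicate 1, 1 rose and 25 fell in bone marrow. Without brain control replicate 1, 1 rose in brain, and without brain control replicate 2, 10 rose and 4 fell. Leaving out duodenum control replicate 1 or 2 left 57 or 62 rises in duodenum, and 1 fall in either case. Scaling also moved the split. With quantile normalization liver had 32 rises and 5 falls, and brain had 18 rises and 13 falls with a median of 0.05 in place of -0.14. With each array's standard deviation as a covariate, liver had 30 rises and 4 falls and brain 11 rises and 15 falls.

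**Figure D1:**
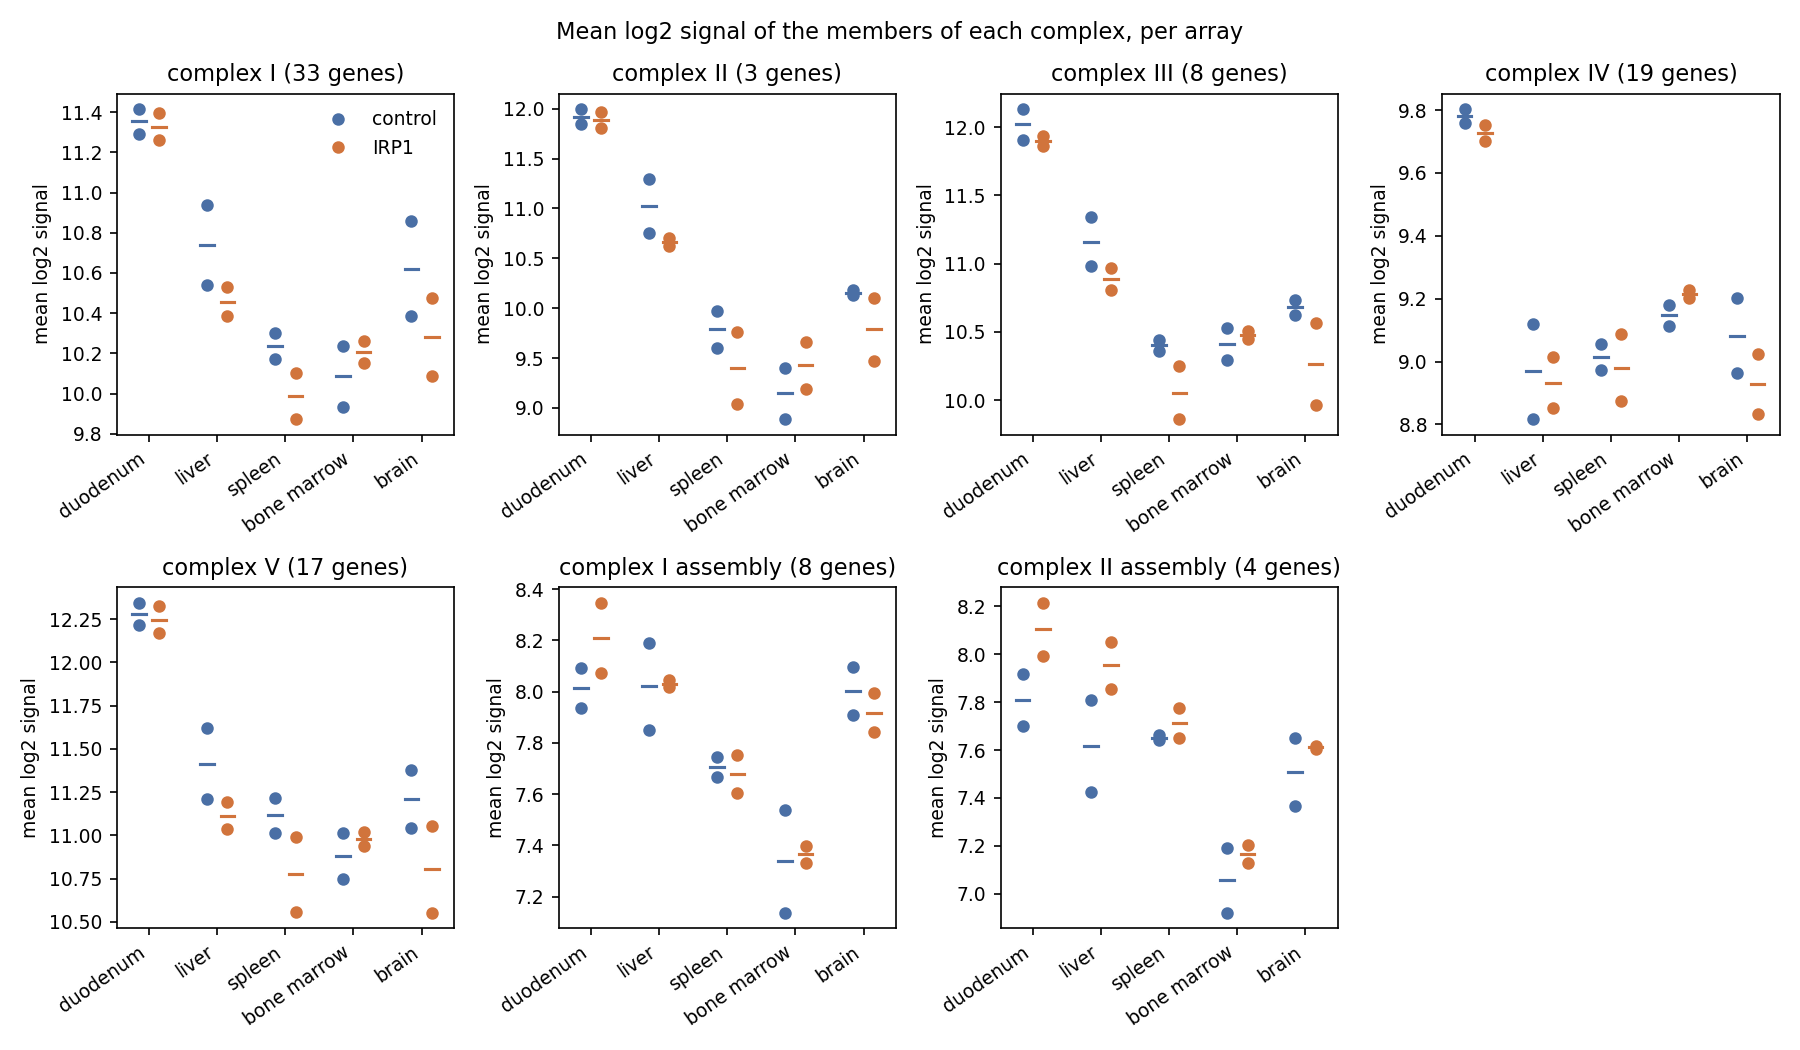
Mean log2 signal over the members of each complex (y axis of each panel) by tissue (x axis), with 1 point per array, blue for the control and orange for the IRP1 reaction, and a short line at the mean of the 2 arrays. In complexes I to V the duodenum arrays lie above all arrays of the other tissues, while the assembly factors of complexes I and II show no such gap.

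Duodenum was also the highest tissue in the IRP1 reactions, which drew on RNA of the same tissues and are no independent set of animals, while the order below it differed. There the member medians were -0.06 in liver, -0.21 in bone marrow, -0.33 in brain and -0.50 in spleen, and spleen was the lowest tissue for 35 members and bone marrow for 26. In duodenum 77 members rose (16.5% of all probe sets did) and 2 fell (19.3%), and 71 of the rises and both falls were called in both reactions. Cox4i2 was the member called in the control reaction alone. Liver had 12 rises (19.8%) and 15 falls (25.8%), spleen 4 (14.5%) and 41 (14.3%), bone marrow 8 (19.7%) and 32 (17.7%), and brain 2 (18.3%) and 31 (24.6%). The F-test called 82 members there too, against 63.9%. For 83 of the 92 members the highest tissue was the same in both reactions. The highest and lowest tissues were again not counted over all probe sets.

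The profiles of most members resembled each other. Over the 5 control means, 63 members correlated above 0.8 with the median profile of the other members and 7 correlated below 0, with a median r of 0.87. The 5 points share their arrays, so these correlations only describe. Other probe sets were not correlated with this profile, so the count is not shown to be particular to the members. The heat map of control levels shows where single genes leave the common profile.

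**Figure D2:**
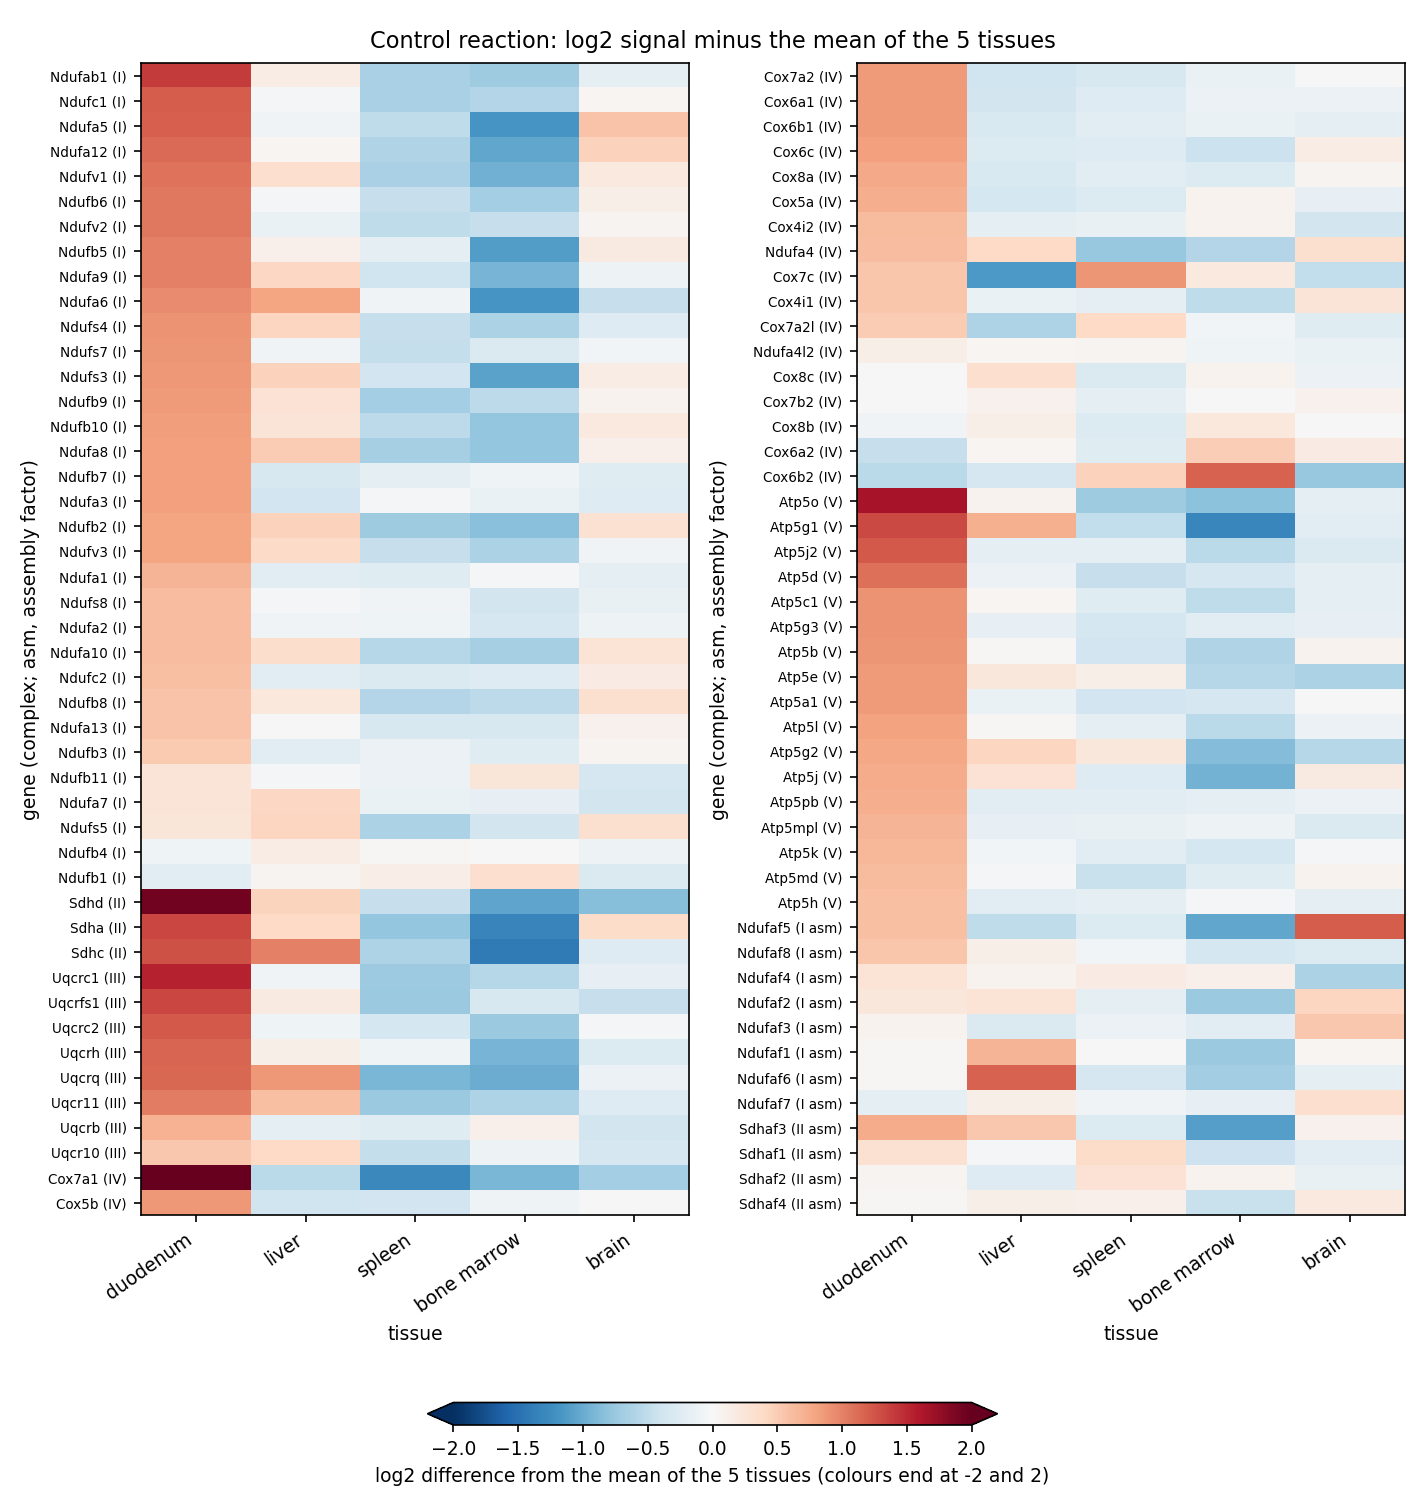
Control reaction: log2 signal of each of the 92 members (rows, grouped by complex) in each tissue (columns), as the difference from the gene's mean over the 5 tissues; red is above and blue below, and colours end at -2 and 2. The duodenum column is red for nearly all rows, apart from rows such as Cox6a2 and Cox6b2, and Ndufaf5 and Ndufaf6 are reddest in brain and liver.

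Complex I was higher in duodenum for 28 of 33 subunits, with a median of 1.02, and lower in bone marrow for 19 and in spleen for 16. Ndufab1, the mitochondrial acyl carrier protein, stood at 11.59 and 11.37 in the duodenum controls and at 9.12 to 10.58 in the others. Both duodenum arrays were above all others, by 1.74 ± 0.20 (SE, adjusted p = 2.33e-06). It was added to the named genes after its values were seen, as the complex I subunit with the largest duodenum rise. Ndufv1, which binds NADH, was 1.36 higher in duodenum, -0.82 in spleen and -1.20 in bone marrow, all called; it too was chosen after its values were seen. Ndufa6, an accessory subunit, overlapped between liver and duodenum. Its controls read 10.10 and 9.71 in liver and 10.09 and 10.03 in duodenum, and 7.65 and 8.22 in bone marrow, its lowest tissue (-1.48 ± 0.18, adjusted p = 5.25e-06). Ndufa1 had the brightest complex I probe set, a ranking of probe sets and not of transcripts. It ran from 12.50 to 13.76 and was 0.85 higher in duodenum.

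The 5 complex I subunits without a duodenum call were Ndufa7, Ndufs5, Ndufb11, Ndufb1 and Ndufb4. Ndufa7 and Ndufs5, both accessory subunits, were instead higher in liver, by 0.52 (adjusted p = 0.00596) and 0.54 (adjusted p = 0.0113). Ndufs5 read 7.85 and 7.91 in liver, 7.75 and 7.62 in duodenum and 8.03 and 7.49 in brain, so brain overlaps liver. Each lost its liver call when a single array was left out, Ndufa7 for 1 array and Ndufs5 for 2. Ndufb4 lay between 4.32 to 4.78 in the controls, under the median probe set at 5.67. In spleen, Ndufb9, a membrane-arm subunit, was -0.86 ± 0.25 (adjusted p = 0.0132), with 10.82 and 11.00 against 10.86 to 12.54 in the other tissues, an overlap with bone marrow. This call was lost without either spleen control, at -0.77 without replicate 1 and -0.95 without replicate 2, and without the 3 arrays low in hybridization controls (spleen IRP1 replicate 2, spleen control replicate 2 and bone marrow control replicate 1).

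Complex II differed widely between tissues. All 3 subunits rose in duodenum (median 1.67), all 3 fell in bone marrow (median -1.65), and 2 fell in spleen. Sdhd, a membrane anchor, read 12.30 and 12.15 in duodenum, 11.07 and 10.43 in liver, 9.57 and 10.11 in spleen, 9.08 and 9.42 in bone marrow and 9.31 and 9.58 in brain. Duodenum stood clear of all others (2.41 ± 0.27, adjusted p = 1.83e-06), and bone marrow and brain were both called lower. Sdha, the flavoprotein that oxidises succinate, was 13.36 and 13.32 in duodenum and 10.56 and 10.80 in bone marrow, where it was -1.65 ± 0.20 (adjusted p = 4.28e-06). In brain it read 12.29 and 12.44, close to liver at 12.61 and 12.18. Sdhc, the other anchor, was high in duodenum (10.33 and 10.06) and in liver (10.22 and 9.64), which overlap, and lowest in bone marrow (7.02 and 7.99). Its bone marrow difference was -1.76 ± 0.24 (adjusted p = 1.36e-05). The missing subunit, Sdhb, carries iron-sulfur clusters and is left out by the rule. It was 1.74 higher in duodenum (adjusted p = 1.44e-05), and Ndufs1 was 1.11 higher (adjusted p = 1.22e-04).

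All 8 subunits of complex III rose in duodenum, with a median of 1.45, and 5 fell in spleen and 5 in bone marrow. Uqcrc1, a core protein, read 12.27 and 12.01 in duodenum and 9.78 to 10.72 elsewhere, without overlap (1.92 ± 0.22, adjusted p = 2.22e-06). Its spleen controls were 9.81 and 9.94 (-0.91, adjusted p = 0.00355), and they overlap bone marrow at 9.78 and 10.27. Uqcrfs1, the Rieske iron-sulfur protein, was 12.69 and 12.55 in duodenum and 10.67 and 10.41 in spleen, the lowest values of any tissue (-0.93 ± 0.18, adjusted p = 5.28e-04). In liver 3 of the 8 rose, against 16.6% of all probe sets. The largest of these rises was that of Uqcrq, at 1.09 (adjusted p = 4.26e-05). Uqcrq was named after its values were seen. Uqcrb, with the brightest probe set of the complex, read 13.60 to 14.82 in the controls. It changed by 0.86 ± 0.17 in duodenum. Its brain difference of -0.47 (adjusted p = 0.0293) changed sign with quantile normalization, to 0.02.

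Complex IV combined broadly detected subunits with tissue-restricted isoforms. In duodenum 13 of 19 rose and 2 fell (median 0.77), against 15.5% and 18.6% of all probe sets. Bone marrow had 4 falls (against 20.1%) and 2 rises (15%), and spleen 2 falls (16.3%) and 3 rises (19.5%). The counts in these 2 tissues were near the background. Cox5b, the brightest, was 14.63 and 14.47 in duodenum against 13.01 to 13.83 (1.08 ± 0.20, adjusted p = 4.05e-04), and Cox5a was 0.90 higher. Cox4i1 rose less, by 0.69 (adjusted p = 0.0243), and its duodenum arrays (13.63 and 13.33) overlap brain (13.45 and 12.91). Cox8a was 0.94 higher in duodenum and Ndufa4 was 0.77 higher, while Ndufa4 fell in spleen (-0.94) and bone marrow (-0.72).

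Cox7a1, the isoform known from heart and skeletal muscle, was the member most restricted to duodenum. Its controls read 8.51 and 8.94 in duodenum, 4.76 and 4.76 in liver, 4.20 and 3.82 in spleen, 4.36 and 4.40 in bone marrow and 4.77 and 4.48 in brain. The IRP1 arrays of duodenum read 7.96 and 8.56. Only the duodenum arrays stood above the median probe set, and the rise was 4.28 ± 0.17 (adjusted p = 3.37e-12), with a call under all alternatives run. The spleen fall of -1.61 (adjusted p = 9.66e-07) is measured against a mean that holds the duodenum arrays, as are its falls in liver, bone marrow and brain. Cox7a2, the broadly detected relative, was 13.50 and 13.43 in duodenum and 11.81 to 12.98 elsewhere (1.07). Smooth muscle markers (Myh11, Acta2, Tagln, Cnn1 and Des) were higher in duodenum for 5 of 5, with a mean of 9.15 to 9.56 in its control arrays, 7.75 to 7.91 in spleen and 6.09 to 6.60 elsewhere. Skeletal and cardiac muscle markers averaged 4.66 to 5.16 in all control arrays (1 of 8 higher in duodenum), and brown fat markers 4.32 to 5.40. The part of smooth muscle in the Cox7a1 level was not tested.

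Cox6b2 and Cox6a2 ran the other way and were the 2 members that fell in duodenum and rose in bone marrow. Cox6b2, known as a testis isoform, read 6.57 and 6.41 in bone marrow, 5.94 and 5.61 in spleen, 5.18 and 4.77 in liver, 4.87 and 4.69 in duodenum and 4.45 and 4.66 in brain. Bone marrow stood above all others (1.47 ± 0.14, adjusted p = 2.45e-07), spleen came next (0.57), and brain was lowest (-0.95, adjusted p = 2.01e-05). Its IRP1 arrays gave the same order at the top, with 6.23 and 6.35 in bone marrow. Testis markers averaged 4.69 to 5.48 in all control arrays and were no higher in bone marrow (4.90 to 5.16) than in liver (5.34 to 5.48). Cox6b1, the broadly detected isoform, read 13.12 and 13.38 in bone marrow and 14.23 and 14.22 in duodenum.

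Cox6a2, a heart and muscle isoform, had controls of 7.95 and 7.71 in bone marrow and 6.90 and 6.85 in duodenum, and both bone marrow control values exceeded those of the other tissues. The differences were 0.62 ± 0.16 in bone marrow (adjusted p = 0.00676) and -0.57 ± 0.16 in duodenum (adjusted p = 0.0123). The duodenum call was lost with quantile normalization, with the array spread as a covariate, and without either duodenum control. The bone marrow call was lost without bone marrow control replicate 1, at 0.50, and without the 3 arrays low in hybridization controls, at 0.49. Cox6a1 moved with the majority, at 14.15 and 14.07 in duodenum against 12.53 to 13.52.

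Liver was the low tissue for Cox7c and Cox7a2l. Cox7a2l, a relative of Cox7a2, read 12.29 and 11.84 in liver and 12.25 to 13.31 elsewhere (-0.77 ± 0.16, adjusted p = 0.00102). The liver values overlap brain by 1 array, and the call was lost when 1 array was left out. In the IRP1 reaction the liver difference was -1.08 (adjusted p = 3.73e-05). Cox7c read 6.25 and 6.17 in liver and 6.63 to 8.59 elsewhere, without overlap (-1.44 ± 0.21, adjusted p = 3.05e-05), through an s_at probe set, a kind that can also bind related transcripts. Cox7c, Cox7a2l and Cox6b2 were the complex IV rises in spleen. Cox4i2, an isoform linked to oxygen supply, was 0.78 higher in the duodenum controls (6.11 and 5.93) but 0.26 in the IRP1 arrays (adjusted p = 0.114). The testis and muscle isoforms Cox7b2, Cox8b and Cox8c and the relative Ndufa4l2 had no duodenum call. Cox7b2 stayed between 3.22 to 3.60, Cox8b between 4.70 to 5.33 and Ndufa4l2 between 4.87 to 5.80 in the controls, and Cox8c was 0.42 higher in liver (adjusted p = 0.0445).

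**Figure D3:**
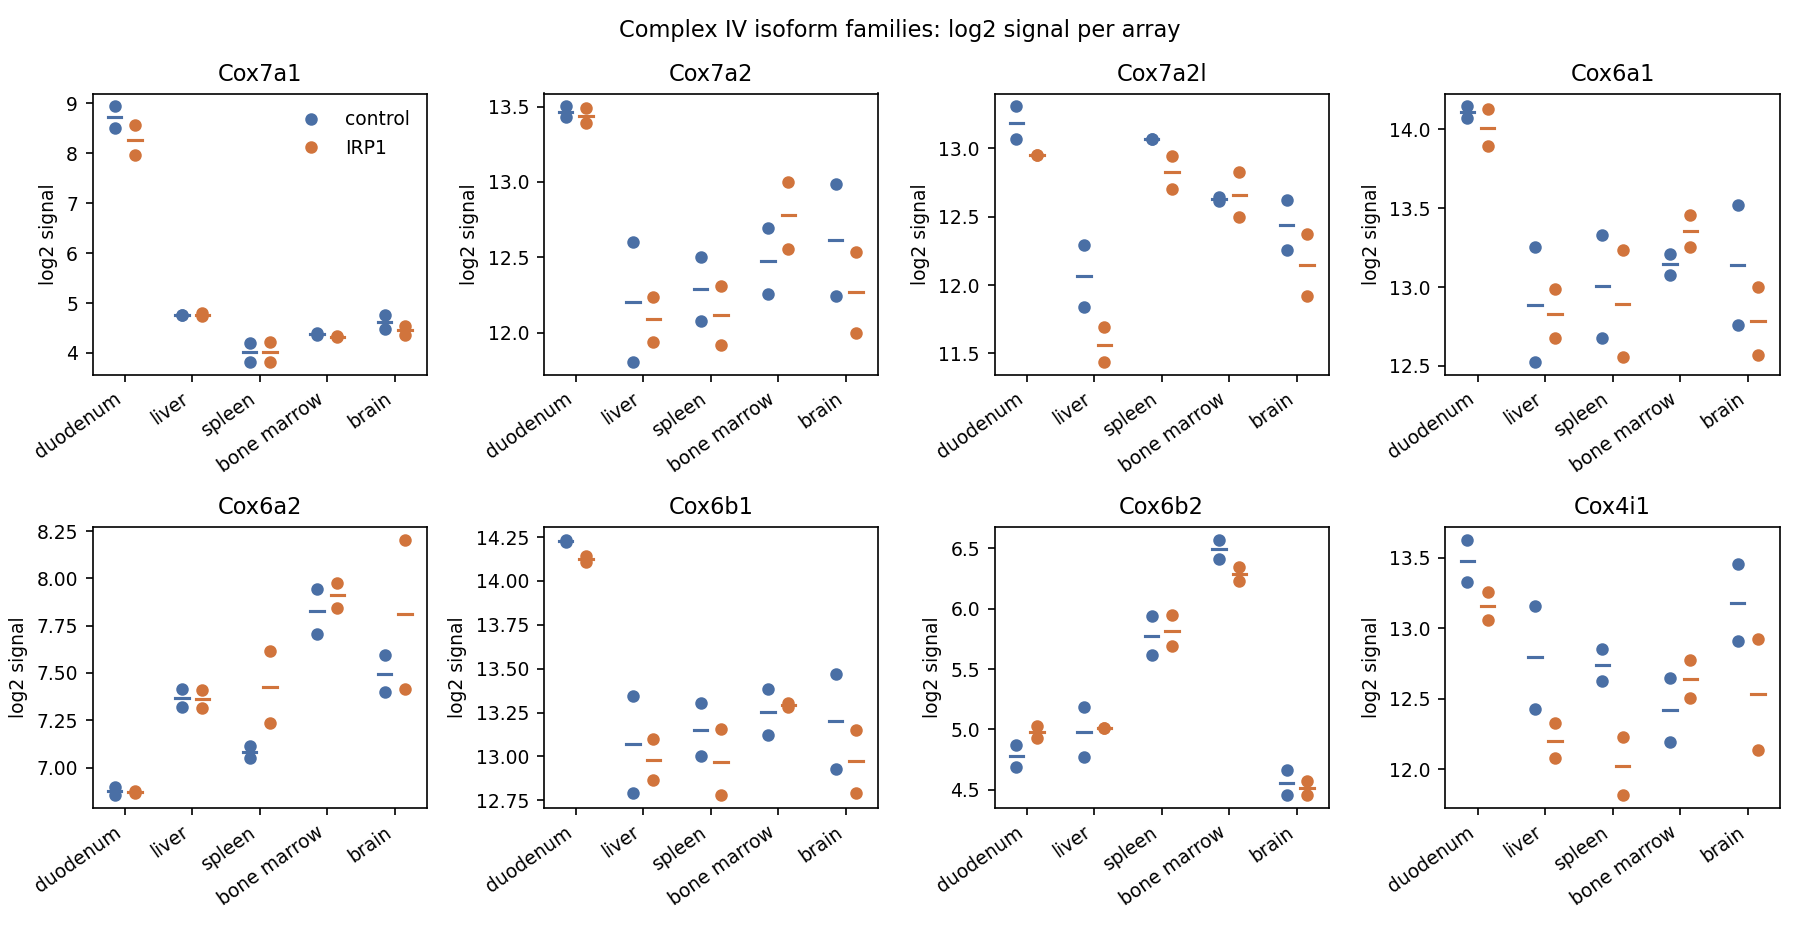
Log2 signal (y axis) of 8 complex IV genes by tissue (x axis), with 1 point per array, blue for control and orange for IRP1, and a line at the mean of the 2 arrays; each panel has its own y range, which does not start at 0. Cox7a1 stands out in duodenum and Cox6b2 in bone marrow, whereas Cox7a2, Cox6a1 and Cox6b1 are highest in duodenum and lower but still bright in the other tissues.

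All 17 members of complex V rose in duodenum, with a median of 1.06, and 8 fell in bone marrow. Atp5o, the stalk subunit that joins the head to the membrane part, read 13.01 and 12.75 in duodenum and 10.37 to 11.42 elsewhere (2.07 ± 0.16, adjusted p = 1.84e-08). Atp5g1, Atp5g2 and Atp5g3 encode the same mature ring subunit and did not share one profile. Atp5g1 read 10.44 and 10.34 in duodenum, 9.94 and 9.61 in liver and 7.47 and 8.06 in bone marrow, the lowest tissue (-1.63 ± 0.21, adjusted p = 1.09e-05). A dimmer probe set of Atp5g1, with a mean of 4.19, was called lower in duodenum (-0.40, adjusted p = 0.0450), so its probe sets disagree. Atp5g2 fell in bone marrow (-1.09) and brain (-0.71). Atp5g3, the brightest of the complex, was 14.53 and 14.26 in duodenum (1.11) and 13.05 to 13.55 elsewhere, with no other tissue called. Atp5e, the small central stalk subunit, was lower in brain (-0.80 ± 0.17, adjusted p = 7.27e-04), where it read 9.75 and 9.62, and lower in bone marrow (-0.71), which overlaps brain at 9.59 and 9.93.

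Calls were fewer among the assembly factors of complexes I and II, and the difference from the subunits was not tested. In the duodenum controls 2 of 8 complex I factors and 1 of 4 complex II factors rose (15.5% of all probe sets did), with medians of 0.18 and 0.23. With the array spread as a covariate the complex I factors had a median of -0.04. In the IRP1 arrays 4 of 8 and 2 of 4 rose in duodenum (against 16.5%), with medians of 0.46 and 0.44. Brain had 4 rises among the 8 complex I factors (against 19.6%). Ndufaf5, which modifies the subunit Ndufs7 during assembly, read 8.06 and 8.53 in brain, 7.71 and 7.66 in duodenum and 5.66 and 6.43 in bone marrow, and brain stood above all others (1.52 ± 0.19, adjusted p = 2.76e-06). Its IRP1 arrays gave 1.28 (adjusted p = 2.06e-05). Ndufaf3 (0.68), Ndufaf7, a methyltransferase (0.42), and Ndufaf2 (0.55) also rose in the brain controls, and none of these 3 was called in the IRP1 arrays. The Ndufaf7 call was also lost with quantile normalization and with array weights. Ndufaf2 read 8.31 and 7.63 in the brain controls, which overlap duodenum (7.86 and 7.66) and liver (7.91 and 7.71). Ndufaf4, which works together with Ndufaf3, was lower in brain (-0.78, adjusted p = 9.04e-04), with 8.73 and 8.06 against 8.96 to 9.45. Averaged over its probe sets it was at -0.10 in brain (adjusted p = 0.517), and without brain control replicate 2 at -0.45, not called.

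Liver was the high tissue for Ndufaf6 and Ndufaf1. Ndufaf6 read 7.81 and 7.57 in liver and 5.69 to 6.71 elsewhere (1.47 ± 0.13, adjusted p = 1.52e-07). Ndufaf1 read 9.06 and 8.70 in liver and 7.13 to 8.44 elsewhere (0.85 ± 0.17, adjusted p = 6.83e-04). Neither overlaps the other tissues, and both calls held in the IRP1 arrays and under the alternatives run. Sdhaf2, which attaches the flavin to Sdha, was higher in spleen (0.37, adjusted p = 0.0196) and lower in liver (-0.33, adjusted p = 0.0314), and both calls were lost with quantile normalization. Ndufaf8, the brightest of the complex I factors, was 0.70 higher in duodenum (adjusted p = 0.011).

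Other mitochondrial genes gave a mixed picture in duodenum, where 15.5% of all probe sets rose and 18.6% fell. Among probe sets above the median signal, 24.5% rose. All 7 electron carrier genes measured (among them Cycs, cytochrome c, and the electron transfer flavoprotein genes) rose in duodenum, with a median of 1.51. In liver 4 rose, against 16.6% of all probe sets. Of 10 measured genes taken as markers of mitochondrial mass, such as the outer membrane channels Vdac1 to Vdac3, 8 rose in duodenum and 0 fell, with a median of 1.03. Of 23 measured assembly factors of complexes III and IV, 13 rose and 0 fell (median 0.53). Of 12 regulators of mitochondrial biogenesis, among them Ppargc1a, Nrf1 and Tfam, 4 rose and 1 fell. Their median of -0.06 was close to the -0.04 of all probe sets.

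Markers of other cell types were read on the same arrays. Hepatocyte markers averaged 13.5 to 13.9 in the liver controls, neutrophil precursor markers 13.0 to 13.2 in bone marrow, B and T cell markers 10.0 to 10.1 in spleen and neuron markers 10.4 to 10.9 in brain. Glia markers did not set brain apart. Of 4 measured, 1 was called higher there, and they averaged 7.43 to 7.54 in the brain controls and 7.05 to 7.35 in liver. Erythroid markers were called higher for 6 of 6 measured genes in both bone marrow and spleen. Enterocyte markers averaged 13.69 to 13.76 in the duodenum controls and at most 9.71 in other tissues. All 6 measured pancreatic acinar markers were also higher in duodenum. They averaged 14.27 in control replicate 1 and 13.24 in control replicate 2, 9.04 to 9.66 in spleen and 5.63 to 6.62 in the other tissues. The members averaged 10.89 and 10.78 in those 2 duodenum arrays. The part of pancreas or smooth muscle in the duodenum levels was not tested. Alb, the liver's albumin gene, read 8.34 and 11.74 in the spleen controls and 10.95 and 7.54 in the brain controls, so spleen replicate 2 and brain replicate 1 were high, and their IRP1 arrays were high too (8.12 and 11.18 in spleen, 10.31 and 7.93 in brain). Its part in the member levels was not tested. Duodenum control arrays also had wide value distributions, with standard deviations of 2.22 and 2.24 against 1.99 to 2.24 in the other controls. With that standard deviation as a covariate 65 members rose in duodenum (median 0.67), and with quantile normalization 59 did (median 0.53).

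The second comparison asks whether added IRP1 pulled down respiratory chain mRNAs. No member was called higher with IRP1 in the mean of the 5 tissues, where 0.773% of all probe sets were, and 4 members were higher at an unadjusted p under 0.05, against 5.97% of all probe sets. The lower calls numbered 5, against 1.03% of all probe sets and 1.92% of those above the median signal, and 28 were lower at an unadjusted p under 0.05, against 10.4% of all probe sets. The 5 are Ndufs7, Ndufs8, Ndufs3 and Ndufb7 of complex I and Atp5e of complex V. In single tissues limma called 0 members in either direction. Of all probe sets, limma called 0.0799% higher and 0.0244% lower in duodenum, 0.091% higher and 0.0933% lower in liver, 0.0688% higher and 0.0333% lower in spleen, 0.127% higher and 0.00444% lower in bone marrow and 0.0866% higher and 0.0377% lower in brain. At an unadjusted p under 0.05, 3 members were lower in duodenum (2.06% of all probe sets were), 14 in liver (8.69%), 13 in spleen (6.87%), 1 in bone marrow (1.72%) and 18 in brain (4.25%). At the same threshold 0 were higher in duodenum (2.02%), 1 in liver (4.82%), 0 in spleen (2.64%), 2 in bone marrow (3.27%) and 0 in brain (2.31%). The F-test for differences between the tissues' IRP1 effects called 0 members (0.0111% of all probe sets), with 2 at an unadjusted p under 0.05, against 4.83%.

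The members lay slightly below 0, a lean that bright probe sets in general shared. In the mean of the tissues 63 of 92 members were below 0 with a median of -0.12. Of all probe sets above the median signal, 14056 of 22518 were below 0, with a median of -0.06. By complex the median was -0.18 for complex I, -0.14 for II, -0.21 for III with 8 of 8 below 0, -0.05 for IV and -0.27 for V with 14 of 17 below 0. The 4 complex II assembly factors were all above 0 (median 0.16). The medians by tissue were -0.31 in brain, -0.20 in spleen, -0.17 in liver, -0.03 in duodenum and 0.10 in bone marrow. The array standard deviation, IRP1 minus control, was -0.0928 in brain, -0.105 in spleen, -0.122 in liver, -0.000169 in duodenum and 0.0741 in bone marrow. With that standard deviation as a covariate the median member was at -0.01, with 1 lower and 2 higher calls, and with quantile normalization at -0.02, with 4 lower and 2 higher. Under these scalings complexes I, III and V kept medians below 0, between -0.12 and -0.07, while complex IV turned to 0.03 and 0.07 and complex II to 0.07 with the covariate. With quantile normalization 6 of 8 complex III members were below 0, and with the covariate 5 of 8.

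**Figure D4:**
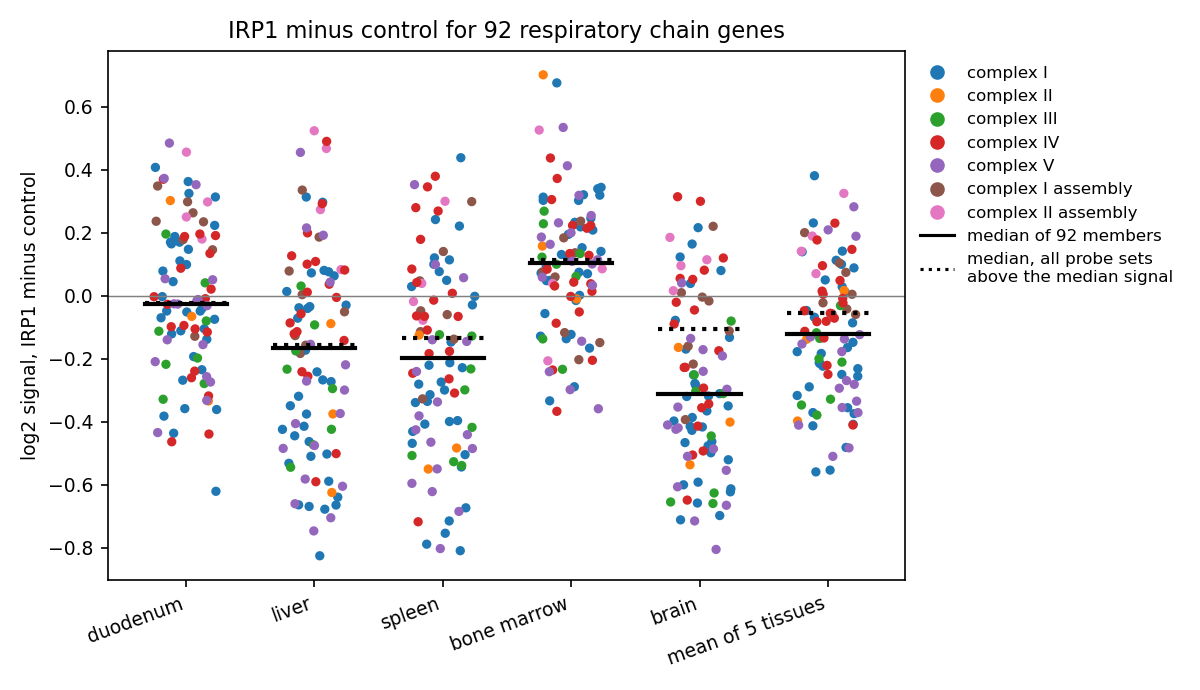
Log2 signal with IRP1 minus control (y axis) for each of the 92 members (points, coloured by complex) in each tissue and in the mean of the 5 tissues (x axis). Solid lines are the members' medians and dotted lines the medians of all probe sets above the median signal; the 2 lie close together in duodenum, liver and bone marrow, and the members' median is lower in brain, at -0.31 against -0.10.

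Both IRP1 arrays lay below both controls for 36 members in spleen (22.1% of all probe sets did), 33 in liver (26%), 25 in duodenum (21.6%), 24 in brain (16.9%) and 6 in bone marrow (11.8%). They lay above both controls for 7 in spleen (17.6%), 10 in liver (19.2%), 15 in duodenum (16.6%), 4 in brain (16.7%) and 19 in bone marrow (19%). No member was lower without overlap in all 5 tissues, against 0.147% of all probe sets, and 9 were in exactly 4, against 1.83%.

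Ndufs7 and Ndufs8 carry the iron-sulfur clusters that hand electrons on towards ubiquinone. Ndufs7 read 10.36 and 10.44 in the spleen controls and 9.68 and 9.61 with IRP1, 11.05 and 10.57 against 9.87 and 10.10 in liver, and 11.83 and 11.67 against 11.24 and 11.50 in duodenum. Controls and IRP1 arrays overlap in bone marrow and brain. The mean over tissues was -0.56 ± 0.11 (SE, adjusted p = 0.0205), and a further Ndufs7 probe set gave -0.50 (adjusted p = 0.0365). Ndufs8 read 11.46 and 11.36 in the spleen controls and 10.64 and 10.56 with IRP1, and was below the controls without overlap in duodenum and liver as well. Its mean was -0.55 ± 0.13 (adjusted p = 0.0407), read through an x_at probe set, a kind prone to cross-hybridization. Without x_at and s_at probe sets it was -0.46 (adjusted p = 0.122), and over its 5 other probe sets the values ran from -0.58 to -0.21. Of the other iron-sulfur subunits, Sdhb, which is no member, was called lower (-0.54, adjusted p = 0.0485). Not called were Ndufv1 at -0.21, Ndufv2 at -0.09 and Uqcrfs1 at -0.12.

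Ndufs3, a core subunit of the matrix arm, read 9.97 and 9.92 in the spleen controls and 9.06 and 9.25 with IRP1, and 10.47 and 10.49 against 9.48 and 10.25 in brain. It was lower without overlap in 3 tissues (mean -0.48 ± 0.11, adjusted p = 0.036). Ndufb7, a membrane-arm subunit, was lower without overlap in 4 tissues, for example 11.43 and 11.46 against 10.76 and 10.78 in spleen, with bone marrow the exception (11.42 and 11.67 against 11.93 and 11.41). Its mean was -0.41 ± 0.09 (adjusted p = 0.0389), and its other probe set gave -0.41 (adjusted p = 0.0445).

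Atp5e lost its call under the fewest alternatives of the 5, but beside single arrays it had 9 settings against 10 for the others. It was read through an s_at probe set, so the setting without x_at and s_at probe sets held no value for it. Its controls against its IRP1 arrays read 11.20 and 11.16 against 11.09 and 10.72 in duodenum, 10.77 and 10.33 against 9.90 and 10.03 in liver, and 10.32 and 10.58 against 9.90 and 9.80 in spleen. In bone marrow they read 9.59 and 9.93 against 9.32 and 9.59, and in brain 9.75 and 9.62 against 8.76 and 9.28. The 2 groups overlap in bone marrow alone. The mean was -0.48 ± 0.09 (adjusted p = 0.0148), and the call held when each of the 20 arrays was left out in turn, whereas Ndufs7 lost its call in 5 and Ndufs3, Ndufs8 and Ndufb7 each in 14 of these fits. Without the same 3 arrays low in hybridization controls the Atp5e call ended as well, at an adjusted p of 0.0535.

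**Figure D5:**
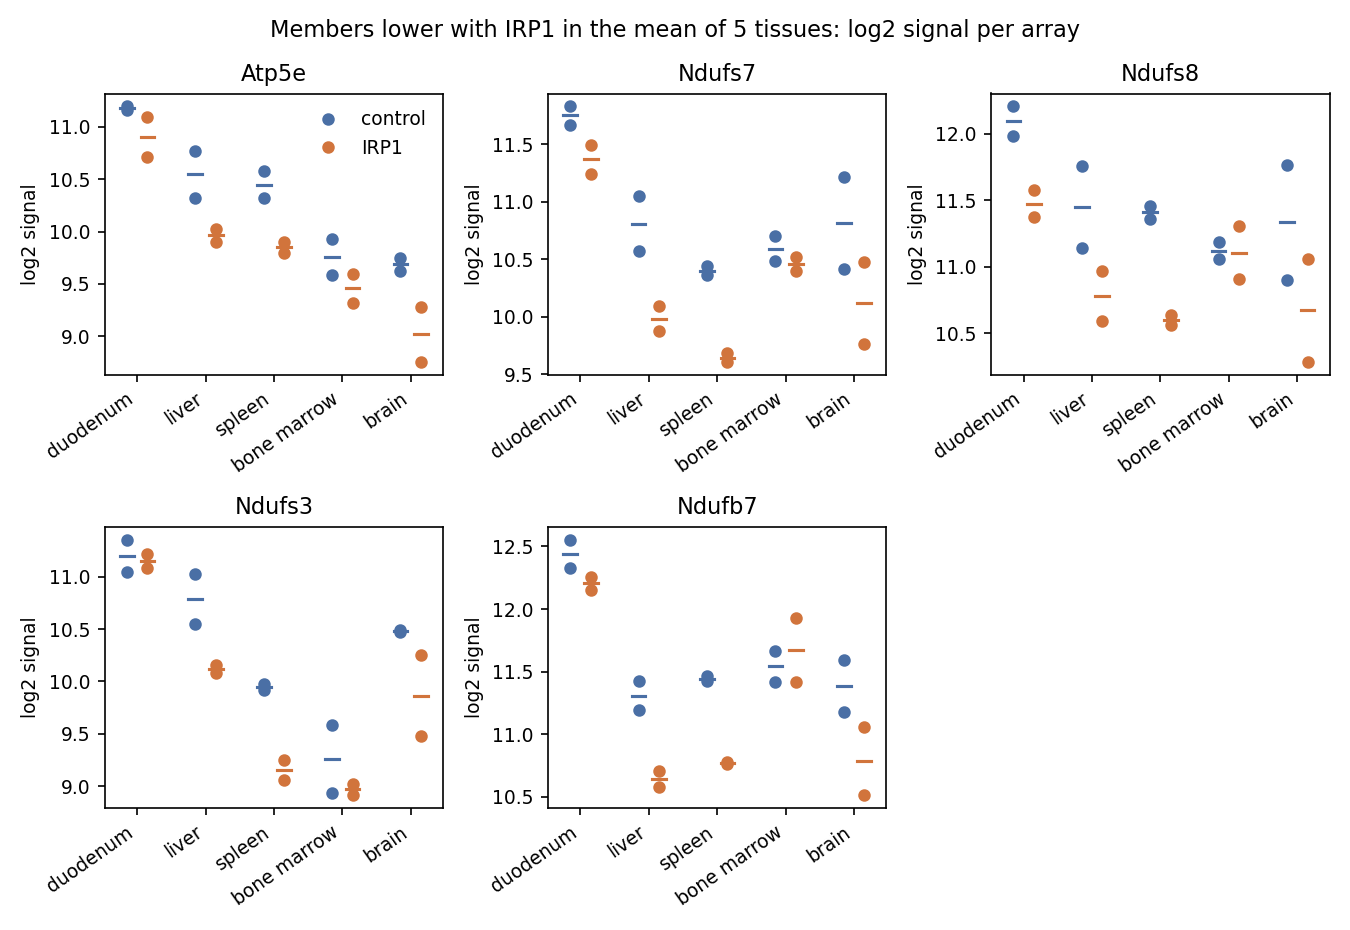
Log2 signal (y axis) of the 5 members called lower with IRP1 in the mean of 5 tissues, by tissue (x axis), with 1 point per array, blue for control and orange for IRP1, and a line at the mean of the 2 arrays; y ranges differ between panels and do not start at 0. In spleen and liver the orange points lie below the blue ones in all 5 panels, and in bone marrow they overlap.

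The number of lower calls depended on single arrays. It was 18 without brain IRP1 replicate 2, 12 without brain control replicate 2 and 9 without liver control replicate 2. It was 3 without duodenum IRP1 replicate 2, liver IRP1 replicate 2 or bone marrow IRP1 replicate 1. It was 2 without spleen IRP1 replicate 1, either spleen control, bone marrow control replicate 2, brain IRP1 replicate 1 or brain control replicate 1. It was 1 without replicate 1 of either reaction in duodenum or liver, or without bone marrow IRP1 replicate 2. Without spleen IRP1 replicate 1 there was also 1 higher call.

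The members next in order of p were not called. Atp5d, the central stalk partner of Atp5e, was at -0.41 ± 0.10 (adjusted p = 0.0546), and Atp5j2, a membrane subunit of complex V, at -0.51 ± 0.13 (adjusted p = 0.0575). The complex I accessory subunits Ndufc1 and Ndufa2 were at -0.32 and -0.41. Ndufc2, also accessory, had the largest positive value, 0.38 ± 0.11 (adjusted p = 0.0794), and its IRP1 arrays exceeded its controls in duodenum (13.03 and 13.09 against 13.49 and 13.25) and bone marrow (12.06 and 12.36 against 12.86 and 12.91).

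Among the members, the extremes of each remaining complex also missed the threshold. Complex II ranged from -0.40 for Sdha (adjusted p = 0.0821) to 0.02 for Sdhd. Complex III ranged from -0.38 for Uqcrc1 to -0.03 for Uqcrh, the hinge protein. Complex IV ranged from -0.41 for Cox4i1 (adjusted p = 0.11) to 0.23 for Cox8b, and complex V reached 0.28 for Atp5g2. Among assembly factors Ndufaf5 was at 0.20 and Ndufaf3 at -0.06, and Sdhaf4, an assembly factor of Sdha, was at 0.32 (adjusted p = 0.286) and Sdhaf2 at 0.07. Ndufs1, left out by the rule like Sdhb, was at -0.15 (adjusted p = 0.514).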

How the data were processed

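The values are log2 signals deposited by the authors for 20 Affymetrix arrays, 2 for each of 10 groups (5 tissues, 2 reactions). Per the submitters' processing notes and design text, RMA and MAS5 with quantile normalization were both named, and which of them made this table is not given in the sources used here. No further normalization was applied. Control probe sets were left out and 45037 were tested. A single fit of 10 groups in limma 3.58.1 (R 4.3.3) with empirical Bayes moderation gave all comparisons: IRP1 minus control in each tissue and in the mean of the tissues, and each tissue against the mean of the other 4. P-values were adjusted by Benjamini-Hochberg over all probe sets, and a call is an adjusted p under 0.05. The number of arrays limits the precision.

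Each of the 92 members is read by its brightest single-symbol probe set out of 183; 53 members have several. In duodenum, 44 of these 53 had the same sign in all their probe sets. For IRP1 minus control in the mean of the tissues only 31 of the 53 did, so signs there depend more on the probe set. Genes named in the text are, in the IRP1 comparison, all called members, further members by smallest p up to 10, and the extremes of each complex. In the tissue comparison they are the 4 largest called rises and falls per tissue whose 2 arrays lie on the same side of the mean of each other tissue, the brightest member per complex, and the isoform families; others are said to be chosen after their values were seen. The members and lists were chosen with earlier results of these data known.

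The fit was tested on simulated data with known answers over 45037 probe sets. It recovered 76.1% of changes of 0.5 (log2) and 100% of changes of 1 in the mean of tissues, but 2.99% and 47.8% in liver alone. False calls numbered 11 in the mean of tissues and 2 in liver. The simulated noise was independent between arrays and probe sets. It held no shifts in array spread or shared replicates, so recovery in the real arrays may differ. The comparisons between tissues were not simulated. Alternatives covered normalization, dim values, probe set choice, array weights, array spread, single arrays and a replicate block. Promoter sequences are from RefSeq (GRCm38.p6). Figures were drawn with matplotlib 3.10.9.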

Additional observations from a re-analysis of the deposited data

How the results depend on the processing

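The number of members higher in duodenum stayed within a factor of 1.5 under the alternatives run, while their median difference fell from 0.96 to 0.53 with quantile normalization. In the mean of tissues, the IRP1 comparison gave 2 higher calls with quantile normalization and 2 with array spread as a covariate, 1 with the mean of all probe sets of a gene and 1 without x_at and s_at probe sets. Lower calls there were 1 with a floor on dim values, 1 without the 3 arrays low in hybridization controls (spleen IRP1 replicate 2, spleen control replicate 2, bone marrow control replicate 1), 1 with the array spread covariate, and 8 over probe sets above the median signal. Quantile normalization gave 1 higher call in liver, and the array spread covariate 1 in spleen. Over all probe sets, same-numbered IRP1 and control arrays deviated together in spleen (r = 0.533), duodenum (0.272) and brain (0.119) but not in liver (-0.0742) or bone marrow (-0.0389). Alb in spleen and brain followed the replicate number in both reactions. So did enterocyte markers in liver, with 8.86 and 9.71 in the controls and 8.44 and 9.67 with IRP1. Hepatocyte markers in duodenum did not (8.01 and 7.32 against 7.45 and 7.45). Whether same-numbered reactions shared RNA is not given, and the main fit did not pair them. With a replicate block 3 members were called lower and 0 higher with IRP1, Ndufb7 and Ndufs8 being the calls lost, and no tissue count moved by more than 1.5 times. In the tissue comparison, quantile normalization gave 1 lower member in duodenum, 32 higher in liver and 18 higher in brain, and moved Uqcrb in brain to 0.0167, a reversed sign. The array spread covariate gave 30 higher in liver, 55 lower in spleen and 11 higher in brain. Probe sets above the median signal gave 1 lower in duodenum and 1 higher in bone marrow. Without the 3 arrays, bone marrow had 1 higher and 25 lower. In the IRP1 reaction, 15 were lower in liver, 8 higher in bone marrow, and 2 higher and 31 lower in brain. Leaving out arrays in turn gave 0 to 1 higher and 1 to 18 lower calls with IRP1. It gave 1 to 2 lower in duodenum, 5 to 19 higher and 2 to 12 lower in liver, 1 to 5 higher and 15 to 36 lower in spleen, 1 to 3 higher and 25 to 51 lower in bone marrow, and 1 to 10 higher and 4 to 15 lower in brain. Of 30 tissue calls of named genes, 18 held under all settings run and 12 were lost in at least 1, of which 1 reversed. The cause of these changes was not tested.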
